A study of Mus musculus with 12 samples.

Results

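Haem, the iron-containing ring carried by haemoglobin, is built in a fixed series of enzyme steps, and the 9 genes described here stand for most of that series and for the iron that feeds it. Alas2, Alad, Uros, Urod, Cpox, Ppox and Fech encode synthesis enzymes. Tfrc encodes the transferrin receptor, which brings iron into the cell, and Slc25a37 encodes mitoferrin 1, which carries iron into the mitochondrion. The genes were taken by symbol from the deposited tables of unique molecular identifiers (UMIs, counts of captured transcript molecules). All 9 were found among the 19463 genes listed in these tables.

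The cells were labelled LSK, the fraction of blood progenitors without lineage markers and with Sca-1 and Kit, which holds stem cells and multipotent progenitors, and were sorted from the livers of C57BL/6J fetuses at day 18.5 of gestation. The labels give 3 wild-type (WT) plates, 3 plates with both Rev1 alleles lost (Rev1 KO), 2 plates homozygous for the K164R change in PCNA (Pcna K164R) and 4 plates homozygous for both (double mutant). REV1 is a polymerase and scaffold of translesion DNA synthesis, and the lysine changed in K164R is the PCNA residue modified by ubiquitin when replication stalls. Each plate was 1 library with 1 sorted cell per well, made by SORT-seq, which reads the 3' end of each transcript. No label says which plates come from separate animals, so p-values measure the spread between plates, which may be technical. Sorting took place in 3 sessions: session 1 held WT 1, Pcna K164R 1 and 2 and double mutant 1 and 2, session 2 held Rev1 KO 1 and double mutant 3, and session 3 held WT 2 and 3, Rev1 KO 2 and 3 and double mutant 4.

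Haem synthesis starts in the mitochondrion, where ALAS joins glycine to succinyl-CoA. ALAS2 is the form made in red-cell precursors, and ALAS1 the form made in nearly every cell. ALAD, UROS and UROD act in the cytosol, CPOX and PPOX oxidise the ring back at the mitochondrion, and FECH inserts the iron. In the red-cell lineage the genes are known targets of the factors GATA1 and KLF1. Iron also acts on the messages: iron regulatory proteins bind a short hairpin, the iron-responsive element (IRE), blocking translation of Alas2 mRNA from its 5' end and protecting Tfrc mRNA from decay at its 3' end.

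The iron-responsive elements were looked up in GENCODE M21 transcripts (GRCm38) because they set the enzyme that opens the pathway and the iron receptor apart from the other members at the level of the message. The search asked for an unpaired C, then 5 bases of stem, the 6 bases CAGTGN of the loop and the 5 bases that pair back to the stem, G-U pairs included. In 58797 protein-coding transcripts, 565 (0.961%) held such a core of 17 bases. Of the protein-coding transcripts of the 9 members, both of Alas2 held 1 core, in the 5' UTR of the main transcript, and 1 of 3 of Tfrc held 4, in its 3' UTR. None of those of the other 7 genes held one by this search. Capitals mark the loop.
Alas2 core (chrX:150547464-150547480, + strand): cgtcctCAGTGCagggc
Tfrc core 1 (chr16:32631225-32631241, + strand): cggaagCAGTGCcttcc
Tfrc core 2 (chr16:32631604-32631620, + strand): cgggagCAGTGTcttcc
Tfrc core 3 (chr16:32631669-32631685, + strand): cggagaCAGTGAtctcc
Tfrc core 4 (chr16:32631716-32631732, + strand): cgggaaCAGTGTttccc

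Promoters were compared because the members differ widely in how far they rose with Klf1, as shown further on. RefSeq windows (GRCm38.p6) were at hand for 7 of the 9 genes, and the 250 bases before each start were searched on both strands for GATAA, the letters read by GATA factors, and CACCC, the letters read by KLF factors. GATAA stood in 22.6% and CACCC in 52.0% of all 32851 windows. A looser motif, CCNCNCCC, which can overlap CACCC, stood in 45.9%. Alas2 and Cpox each held 1 GATAA match, in both cases 86 bases before the RefSeq start, with 3 and 4 CACCC matches. The Alas2 CACCC matches, 40, 35 and 30 bases before its RefSeq start, lie past its GENCODE start and so outside the bases printed below. Distances from the GENCODE starts differ from those given. Urod and Ppox held none of the 3 motifs. Alad, Uros and Tfrc have 2 windows each, of which only the second Uros window held GATAA. A match describes these letters and no binding. The 150 bases before the earliest annotated start (RefSeq or GENCODE) are printed for Cpox, the member with the steepest rise with Klf1, for Ppox, one of the flattest, and for Alas2 and Tfrc, the entry points of the pathway and of iron. Capitals mark GATAA and CACCC matches that lie whole within the printed bases, on either strand.
Alas2 (chrX:150547225-150547374, + strand): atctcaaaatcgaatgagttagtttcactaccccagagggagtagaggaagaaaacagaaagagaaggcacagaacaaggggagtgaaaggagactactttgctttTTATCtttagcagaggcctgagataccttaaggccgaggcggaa
Cpox (chr16:58670058-58670207, + strand): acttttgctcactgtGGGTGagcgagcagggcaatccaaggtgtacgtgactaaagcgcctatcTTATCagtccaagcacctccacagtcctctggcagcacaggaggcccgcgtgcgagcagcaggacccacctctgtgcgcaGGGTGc
Ppox (chr1:171281187-171281336, - strand): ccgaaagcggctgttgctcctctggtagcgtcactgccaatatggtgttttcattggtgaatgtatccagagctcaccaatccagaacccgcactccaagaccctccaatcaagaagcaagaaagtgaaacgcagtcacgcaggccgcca
Tfrc (chr16:32608746-32608895, + strand): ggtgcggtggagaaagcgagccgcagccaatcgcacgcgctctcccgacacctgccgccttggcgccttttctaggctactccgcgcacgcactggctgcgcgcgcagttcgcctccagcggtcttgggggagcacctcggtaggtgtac

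Wells with at least 1000 UMIs outside the spike-in RNAs were kept, 3088 of 4608, and their counts were summed per plate. The sums ran from 212938 UMIs in double mutant 3, which kept 82 wells with a median of 1730 UMIs each, to 11617420 UMIs in double mutant 1. Levels are given as CPM, a gene's UMIs per 1000000 UMIs of the library, with TMM scaling between plates unless called unscaled. Over all kept wells the TMM factor of double mutant 3 was 0.549, which raises its CPM. The other plates had factors of 0.973 to 1.115. Kit stood at 122 to 505 CPM in the 12 plates and Ly6a, the Sca-1 gene, at 19.1 to 101 CPM in 11, while double mutant 3 had 0 Ly6a UMIs. The library labelled double mutant 4 went against its label on Rev1, with 33 UMIs or 13.4 CPM against 10.5 to 18.4 CPM in WT, 1.26 to 5.62 CPM in Rev1 KO and 1.33 and 2.50 CPM in double mutant 1 and 2. Double mutant 3 held 1 Rev1 UMI. Where the deletion lies relative to the 3' tags is not given in the sources used here, and an amino acid change in PCNA cannot be read from its counts. Member counts for double mutant against WT and against Rev1 KO, and the share of Klf1-positive wells, are given with and without 1 or both of them. Counts over the marker lists and over the other haem and iron genes were not recomputed without these plates.

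The kept wells were split by Klf1, the master factor of red-cell genes. Klf1-positive wells had at least 1 Klf1 UMI and numbered 535. A further 2105 wells had 0 UMIs of Klf1 and of Rhd and Rhag, the Rhesus genes of the red-cell membrane, and the remaining 448 had Rhd or Rhag but no Klf1. In 11 plates both classes had at least 5 wells, and there Klf1-positive wells were deeper, with plate medians of 19798 to 44225 UMIs against 7450 to 25338 UMIs in the wells without the 3 genes. Double mutant 3, with 2 Klf1-positive wells and medians of 3718.5 and 1543 UMIs, did not enter the comparisons of or within Klf1-positive wells. Rev1 KO 1, with 5 such wells, was then the only plate of session 2, so the session term fitted it exactly and it added nothing to the genotype differences in Klf1-positive wells.

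Within a plate, the synthesis enzymes and Tfrc were far higher in Klf1-positive wells than in wells without Klf1, Rhd and Rhag. Of the 9 members, 8 passed the filter on low counts, and all 8 were higher in edgeR's quasi-likelihood test with plate as a block and Benjamini-Hochberg adjustment. The background is wide: 63.8% of the 9934 genes tested were called in this comparison, 32.3% as higher. The median log2 difference was 2.47 over the 8 members and -0.00 over all genes tested. The size of the rise differed between the members, from 20.5-fold for Cpox to 1.79-fold for Slc25a37, and did not follow the order of the pathway.

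Cpox, the coproporphyrinogen oxidase gene at chr16:58670292-58717636, had the lowest p-value of all 9934 genes, with a log2 difference of 4.36 ± 0.10 (SE, edgeR adjusted p = 2.98e-21). Its level was 479 to 1270 unscaled CPM in Klf1-positive wells (median 800 over 11 plates) and 29.0 to 62.4 in the wells without the 3 genes (median 39.5). The lowest Klf1-positive value thus lay well above the highest of the other class. Fech, whose enzyme closes the pathway, stood at 187 to 477 unscaled CPM against 18.1 to 65.3, a log2 difference of 3.27 ± 0.10 (edgeR adjusted p = 1.40e-18). Alad, which acts after ALAS, stood at 148 to 329 against 17.1 to 42.9 unscaled CPM, a log2 difference of 3.08 ± 0.08 (edgeR adjusted p = 9.69e-20). For these 3 genes the classes did not overlap, and the rise was seen in 11 of 11 plates.

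Uros, Urod and Ppox rose less than Cpox, Fech and Alad. Uros had a log2 difference of 2.21 ± 0.11 and Urod one of 1.93 ± 0.09, with no overlap of the classes over 11 plates. Urod, at chr4:116989965-116994413, kept a sizeable level without Klf1, 28.3 to 43.3 unscaled CPM against 84.1 to 158 with it. Ppox had 1.73 ± 0.14 and was higher in 10 of 11 plates. The exception was Rev1 KO 1, where 5 Klf1-positive wells gave 2 Ppox UMIs.

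The iron genes differed in how far they rose. Tfrc, at chr16:32608920-32632794, stood at 268 to 554 unscaled CPM in Klf1-positive wells and 56.6 to 110 in the wells without the 3 genes, with no overlap and a log2 difference of 2.74 ± 0.09 (edgeR adjusted p = 2.43e-18). Slc25a37 stood at 73.0 to 212 against 56.6 to 84.9 unscaled CPM. Its ranges overlapped, it was higher in 10 of 11 plates, and its log2 difference of 0.84 ± 0.11 was the smallest of the 8. Slc25a37 shares its strand with an overlapping gene model, Gm20236, so part of its count may belong to that model.

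**Figure D1:**
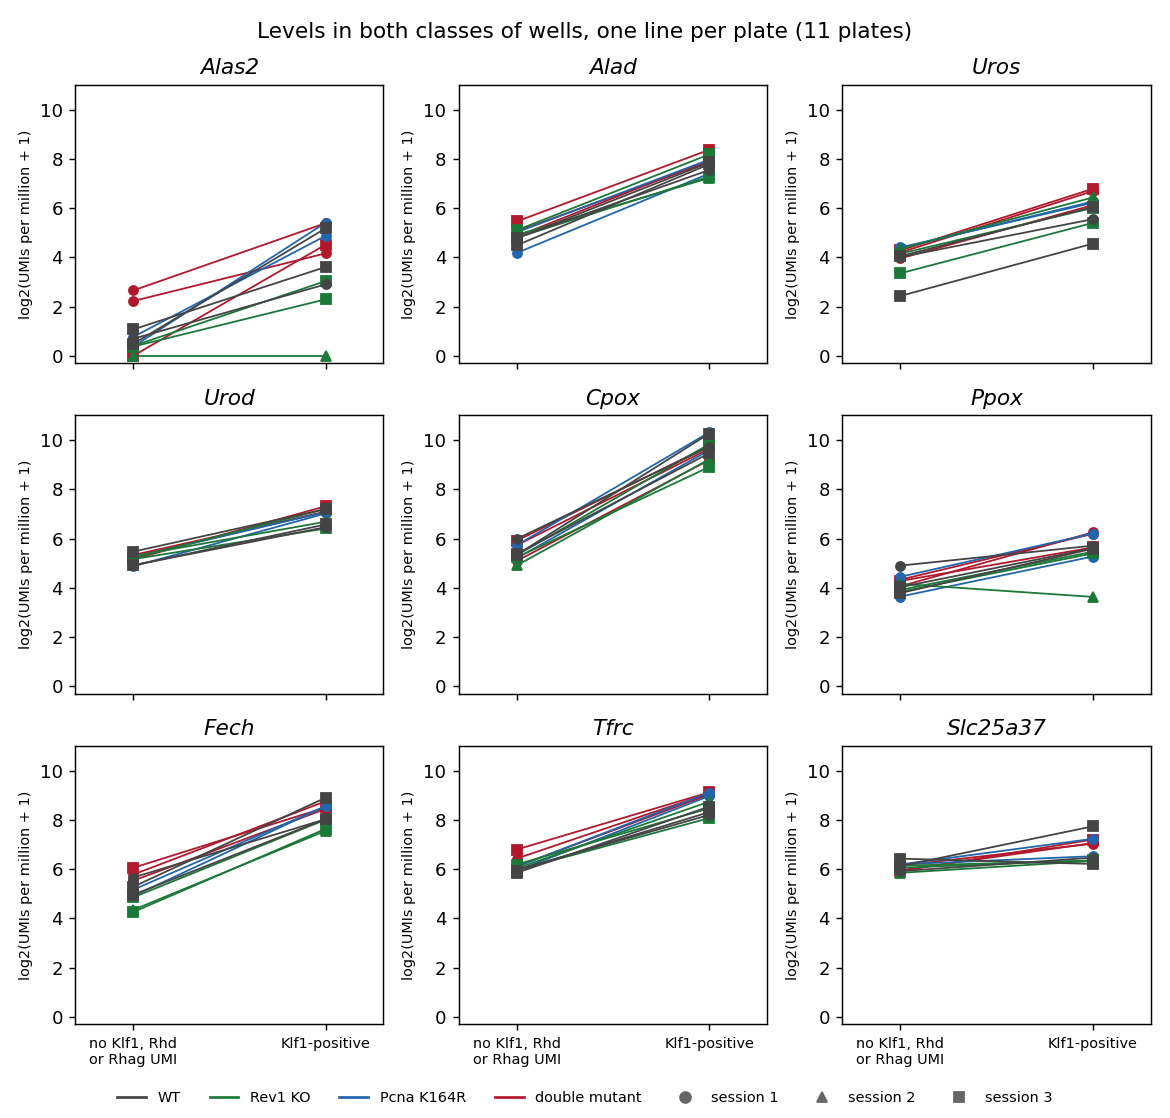
Levels of the 9 genes in the wells without Klf1, Rhd and Rhag (left of each panel) and in Klf1-positive wells (right), as log2(unscaled CPM + 1). Lines join the 2 classes of a plate, colours give the genotype and symbols the sort session, for the 11 plates with at least 5 wells in both classes; Cpox rises the most, Slc25a37 the least of the 8 genes tested, and Alas2 stays at 0 in Rev1 KO 1.

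The members also differed between the classes when counted at equal depth. The classes themselves stayed as set before thinning, at unequal depth. With every well thinned to 1000 UMIs, a Cpox UMI was found in 20.0% to 60.0% of the Klf1-positive wells of a plate (median 42.5%, 11 plates) and in 3.07% to 18.4% of the wells without the 3 genes (median 4.51%, 12 plates). Tfrc was found in a median of 33.9% and 5.29%, and Fech in 21.4% and 3.03%. For Slc25a37 the medians were 11.3% and 5.98%. Before thinning the Cpox medians were 84.2% and 46.0%, and those of Slc25a37 77.8% and 54.4%. The wells without Klf1 therefore also hold members at a low level, and free RNA between wells was not measured. Thinned wells held a mean of 0.8 to 1.9 of the 9 genes with Klf1 and 0.235 to 0.816 without. Unthinned, 72 of 533 Klf1-positive wells in these 11 plates held UMIs of all 9 genes, against 0 of 2105 wells without the 3 genes.

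Other cell types move with this split. Leaving out the 3 genes that define the classes, 11 of 11 erythroid markers tested were higher, the stem and multipotent list was lower for 7 of 8, and 8 of 8 macrophage markers tested were also higher in Klf1-positive wells (median log2 difference 2.53, against -0.00 over all genes). Macrophages of the fetal liver hold red-cell precursors close to them. In Klf1-positive wells the summed macrophage markers were 146 to 279 CPM in the double mutant, 327 to 933 CPM in WT, 235 to 1320 CPM in Rev1 KO and 700 and 825 CPM in Pcna K164R, with no marker that had UMIs at 0 in any of these plates. Their part in the levels of the 9 genes was not tested.

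Alas2 was rare and uneven. Its 594 UMIs lay in 131 of 3088 kept wells (4.24%), whereas Tfrc was found in 58.5% and the least widespread of the other members, Uros, in 27.2%. Alas2 failed the filter in the comparison of the classes. In the 6 alternatives in which it was tested it was higher in Klf1-positive wells, by 3.97 to 5.88 on the log2 scale. Klf1-positive wells held 195 of 229 Alas2 UMIs in double mutant 1, 85 of 94 in double mutant 2, 35 of 38 in double mutant 4, 68 of 79 in Pcna K164R 1 and 42 of 44 in Pcna K164R 2. They held 15 of 19 in WT 1, 2 of 3 in Rev1 KO 2 and 9 of 10 in Rev1 KO 3. Other plates went the other way, with 6 of 17 in WT 2, 4 of 58 in WT 3 and 0 of 3 in double mutant 3. Within the Klf1-positive wells, 87 had Alas2 and 448 did not. Those with Alas2 also had higher levels of every other member, such as 281 against 78.6 unscaled CPM for Slc25a37, 628 against 286 for Fech and 777 against 410 for Tfrc. They were deeper too, with a median of 43274 against 32713.5 UMIs, which by itself makes a rare gene more often seen.

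A few wells carried most of the Alas2 of a plate. In WT 3, 39 of 58 Alas2 UMIs came from 1 well of 4729 UMIs that had no Klf1 UMI and 1 Rhd UMI. That well held 37 Slc25a37 UMIs and 9 Fech UMIs, but 1 Urod, 1 Cpox and 0 Tfrc, Alad, Uros and Ppox UMIs, and 13 globin UMIs. Over the Klf1-negative wells with at least 5 Alas2 UMIs, a minimum chosen after the values were seen, there were 7 wells from 5 plates. All 7 had Fech and Slc25a37, while 3 of 7 had Tfrc and 3 of 7 had Alad. In 2 of these wells, from double mutant 1 and 2, mitochondrial transcripts made up 63.4% and 61.7% of UMIs. The 23 Klf1-positive wells with as much Alas2 were different in make-up: 23 of 23 had Tfrc, Alad and Cpox. Their median depth was 33308 UMIs against 4729 UMIs in the 7, so the absence of a gene in the latter is less well measured.

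**Figure D2:**
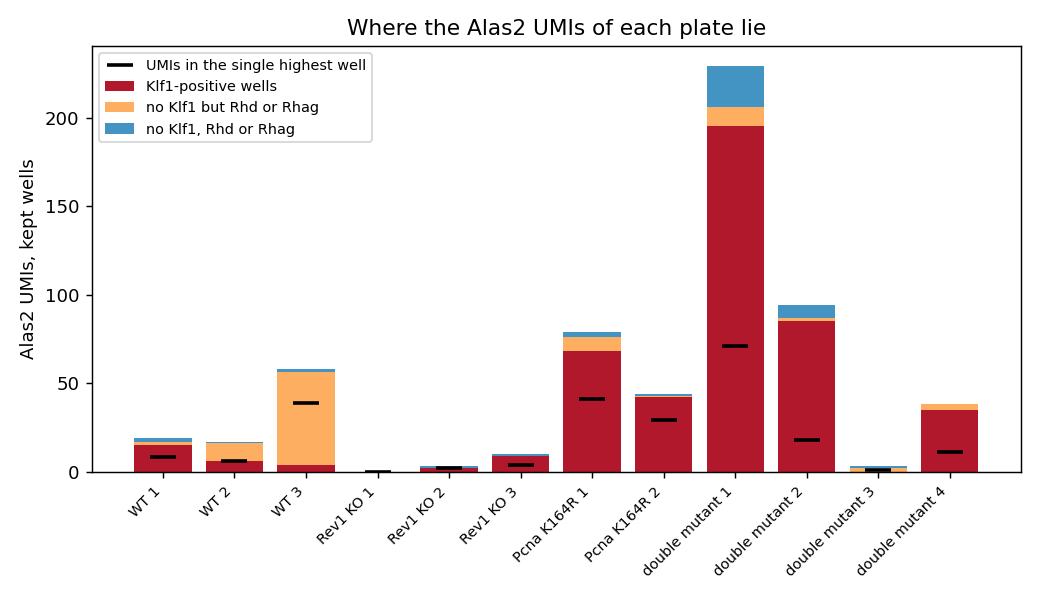
Alas2 UMIs in the kept wells of each plate (y axis, counts), stacked by class of well; black dashes give the UMIs of the single highest well. The bars of WT 3 and of double mutant 1 and 2 show the contrast: 52 of 58 UMIs of WT 3 lie in wells with Rhd or Rhag but no Klf1, while Klf1-positive wells hold 195 of 229 and 85 of 94 in the 2 double mutant plates.

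Over all kept wells, 4 of the 9 members were higher in the double mutant than in WT at an adjusted p under 0.05 in edgeR's quasi-likelihood test with genotype and sort session as terms: Tfrc, Fech, Uros and Alad. All 9 differences were above 0, with a median log2 fold change of 1.42 against -0.04 over all 12221 genes tested. The background was 4.21% of genes called, 1.8% as higher. In bulk sums of this kind, more cells of a type and more RNA per cell cannot be told apart. Of 15 erythroid markers 7 were higher in the double mutant as well, with sums of 998 to 2810 CPM against 707 to 1250 CPM in WT, and 4 of 8 stem and multipotent markers were lower, with 668 to 1000 CPM against 1610 to 1860 CPM. Their part in the differences of the 9 genes was not tested. The calls depended on few plates.

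Tfrc stood at 132, 68.4 and 85.7 CPM in WT 1 to 3 and at 282, 314, 182 and 392 CPM in double mutant 1 to 4. After TMM scaling, the lowest double mutant plate lay above the highest WT plate. That lowest plate was double mutant 3, with 21 Tfrc UMIs of 212938 and the TMM factor of 0.549. Without the scaling it lay below WT 1, which had 1004 Tfrc UMIs of 7259627. The log2 fold change was 1.73 ± 0.28 (SE, edgeR adjusted p = 0.0106). Rev1 KO, at 69.9, 78.6 and 130 CPM, lay within the WT range, and Pcna K164R, at 189 and 143 CPM, lay between WT and the double mutant 1, 2 and 4.

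Fech stood at 111, 60.9 and 63.5 CPM in WT and at 216, 204, 43.4 and 258 CPM in the double mutant, so that double mutant 3 fell below every WT plate and the other 3 above. Its log2 fold change was 1.42 ± 0.31 (edgeR adjusted p = 0.0285). Alad followed the same layout, with 75.6, 34.1 and 45 CPM in WT and 120, 146, 26.0 and 227 CPM in the double mutant (1.58 ± 0.40, edgeR adjusted p = 0.0481). The double mutant 3 values of Fech and Alad come from 5 and 3 UMIs.

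Uros, the uroporphyrinogen III synthase gene at chr7:133686243-133710072, stood at 23.1, 16.2 and 7.26 CPM in WT and at 37.7, 62.8, 148 and 78.3 CPM in the double mutant, with no overlap. Its log2 fold change was 1.97 ± 0.43 (edgeR adjusted p = 0.0301). It was highest in double mutant 3, with 17 UMIs and the TMM factor of 0.549. Without the scaling that plate lay about level with double mutant 4, at 17 of 212938 against 193 of 2402867 UMIs. Uros overlaps Bccip on the other strand, and no label says whether counting used the strand. The same holds for Alas2 with Apex2, Cpox with Gpr15 and Ppox with B4galt3.

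The other 5 members missed the threshold. Urod differed by 1.06 ± 0.28 on the log2 scale (edgeR adjusted p = 0.0553), Cpox by 1.39 ± 0.47 (0.104) and Ppox by 0.85 ± 0.32 (0.1415). Cpox ranged from 98.1 to 299 CPM in WT and from 182 to 589 CPM in the double mutant, and these ranges overlapped. Alas2 had 1.60 ± 0.77 (0.240): WT 3, with the Alas2-rich well above, stood at 21.1 CPM next to 2.50 and 5.31 CPM in WT 1 and 2, and the double mutant plates at 20.3, 9.78, 26.0 and 15.4 CPM. Slc25a37 had the smallest difference, 0.42 ± 0.21 (0.262), with 68.0 to 88.6 CPM in WT and 34.7 to 116 CPM in the double mutant.

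**Figure D3:**
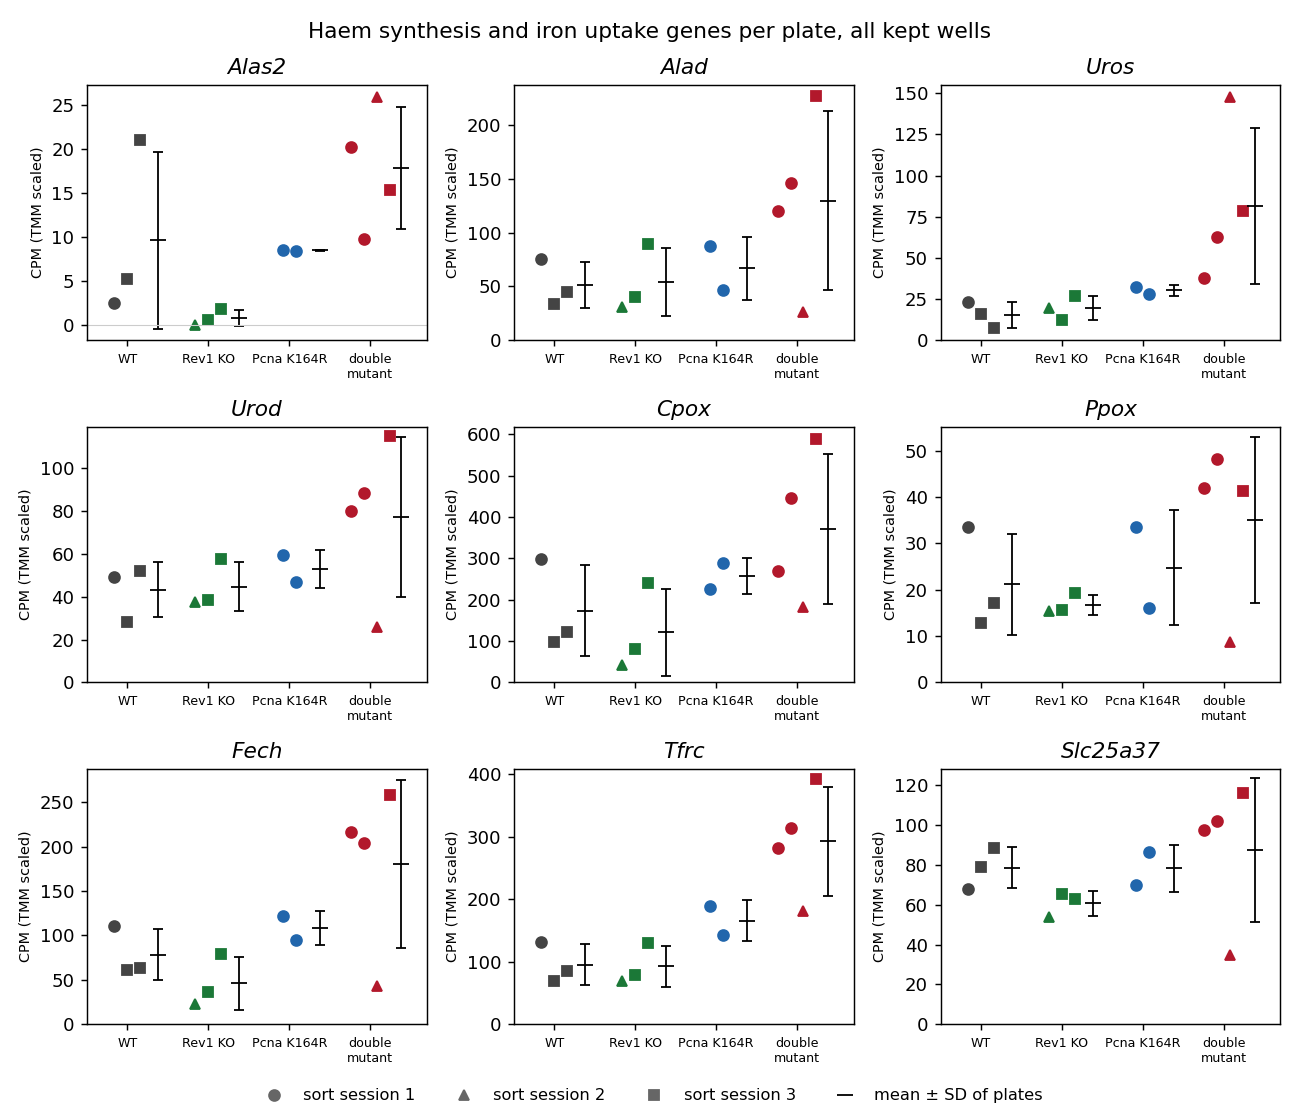
TMM-scaled CPM of each gene in all kept wells of the 12 plates, by genotype; symbols give the sort session, and black bars the mean ± SD of the plates. Tfrc and Uros of the double mutant lie above all WT plates, Tfrc in double mutant 3 only through the TMM scaling. Double mutant 3 (red triangle) lies below WT for Alad, Urod, Ppox, Fech and Slc25a37.

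The count of 4 turned on single plates. Without the library labelled double mutant 4, 0 of the 9 passed (0.0987% of all genes), with 9 of 9 still above 0 and a median log2 fold change of 0.84. Leaving out double mutant 3 gave 6 called members, and leaving out both gave 0 with a median of 0.82, a setting added after the data were seen. Without WT 2 it was also 0, without double mutant 2 or WT 3 it was 1, and without double mutant 1 it was 2. Within session 1, with 1 WT and 2 double mutant plates, 0 of 9 passed and the median was 0.82. Within session 3, with 2 WT plates and the library labelled double mutant 4, 7 of 9 passed and the median was 2.07, beside 11.7% of all genes. Tfrc was 1.18 ± 0.25 in session 1 and 2.37 ± 0.29 in session 3. For Alas2 the order was turned, with 2.59 ± 0.56 in session 1 and 0.26 ± 0.76 in session 3, where the control plates include WT 3.

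**Figure D4:**
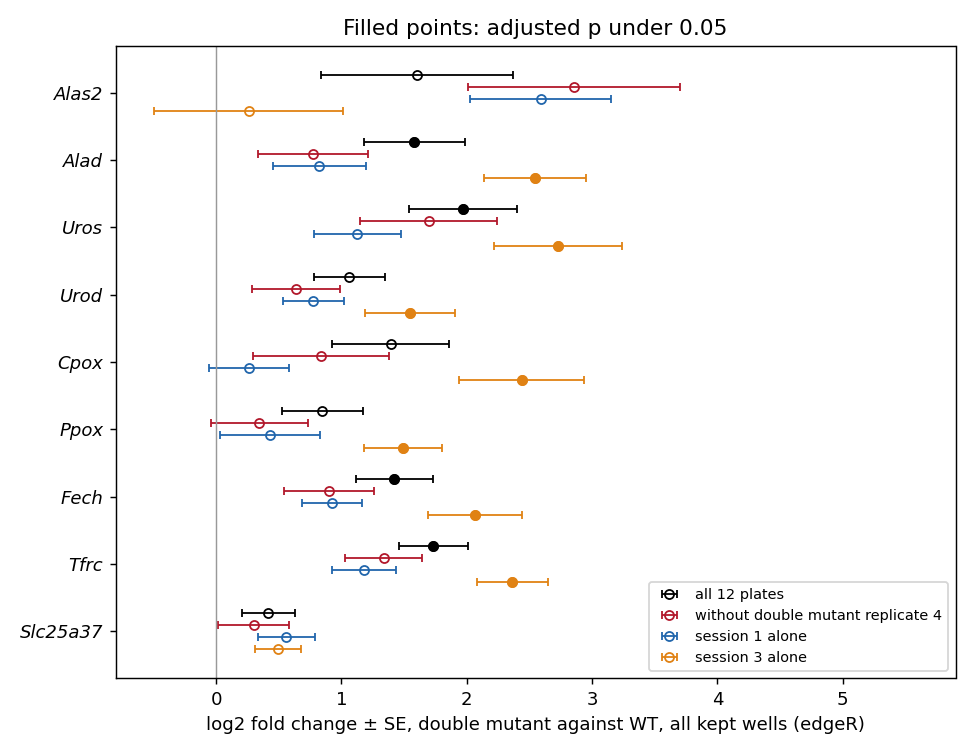
Log2 fold changes (x axis, ± SE) of double mutant against WT in all kept wells, from edgeR on all 12 plates, without the library labelled double mutant 4, and within sessions 1 and 3; filled points have an adjusted p under 0.05. Every point lies above 0, and the session 3 values exceed the session 1 values for 7 of the 9 genes, Alas2 and Slc25a37 being the exceptions.

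The share of Klf1-positive wells was compared between genotypes by a permutation of the plates that takes no account of the sort session. With wells thinned to 1000 UMIs, a Klf1 UMI was found in 7.84% (exact binomial 95% interval 5.27 to 11.1), 11.9% (8.31 to 16.4), 0% (0 to 4.4) and 8.41% (3.92 to 15.4) of wells in double mutant 1 to 4. WT gave 3.94% (2.22 to 6.41), 0.656% (0.0795 to 2.35) and 0.585% (0.0148 to 3.22). These intervals cover counting error only. The mean difference was 5.32 percentage points, 7.05 ± 5.04% (SD, n = 4) against 1.73 ± 1.92% (SD, n = 3), and did not pass a two-sided exact permutation test (p = 0.2, 0.45 after adjustment over 3 comparisons, the smallest possible p being 0.0286). Without double mutant 3 it was 7.67 points (exact permutation p = 0.1, the smallest possible with 3 against 3), with the 3 remaining plates above every WT plate, and without the library labelled double mutant 4 it was 4.87 points (exact permutation p = 0.4). Rev1 KO (1.43 ± 1.04%) and Pcna K164R (3.27 ± 1.43%) differed from WT by -0.293 and 1.55 points, with exact permutation p = 0.8 and p = 0.3, where 0.1 is the smallest possible. Much of the spread in WT lay between sessions, with 3.94% in session 1 and 0.656% and 0.585% in session 3. Within session 3 both Rev1 KO plates, at 2.35% and 1.65%, lay above both WT plates, opposite to the pooled difference, and the library labelled double mutant 4 lay above all of them. Within session 1 double mutant 1 and 2 lay above the WT plate, and Pcna K164R lay on either side of it, at 2.26% and 4.29%. These within-session differences hold too few plates for a test to pass. Klf1-positive wells held 41.0%, 52.1%, 3.49% and 66.5% of all UMIs in double mutant 1 to 4, and 31.9%, 5.9% and 14.3% in WT 1 to 3.

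Inside the classes the differences between double mutant and WT were smaller for most members. In Klf1-positive wells (3 double mutant and 3 WT plates) 1 of 9 members, Tfrc, was called, beside 1.19% of the 9558 genes tested, 0.251% as higher. The median log2 fold change was 0.45, against 0.00 over all genes. In the wells without Klf1, Rhd and Rhag 0 of 9 were called by edgeR and by DESeq2, with 1 at an unadjusted p under 0.05, beside 0.393% of 11716 genes (0.0939% as higher) and with a median of 0.43. Cpox, at 1.39 over all wells, was -0.22 ± 0.27 in Klf1-positive wells and 0.18 ± 0.36 in the others. The difference of the double mutant effect between the classes was tested directly, with plate as a block, and passed for 0 of 8 members in edgeR and in DESeq2 (1 at an unadjusted p under 0.05, Ppox), beside 0.0705% of all genes, 0.0101% as higher.

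Tfrc in Klf1-positive wells was the clearest of these values. It stood at 303, 368 and 311 CPM in WT 1 to 3 and at 555, 523 and 555 CPM in double mutant 1, 2 and 4, so that the lowest double mutant plate exceeded the highest WT plate. The log2 fold change was 0.78 ± 0.17 (edgeR adjusted p = 0.0375). Pcna K164R, at 544 and 522 CPM, lay in the range of the double mutant, with 0.78 ± 0.21 against WT, an unadjusted p of 0.00189 and an edgeR adjusted p of 0.901. Rev1 KO stood at 430, 271 and 346 CPM, -0.09 ± 0.20 against WT. The double mutant and Pcna K164R differed by 0.00 ± 0.18 here, and the 5 plates with homozygous K164R lay above the 6 without it. That grouping was made after the values were seen, and how many of all genes separate the same plates was not counted. It is also uneven over the sessions: both Pcna K164R plates and double mutant 1 and 2 were sorted in session 1, most plates without K164R in others. In the wells without Klf1 the Tfrc difference of double mutant and WT had nearly the same size, 0.75 ± 0.23, with an edgeR adjusted p of 0.166.

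That call did not survive every setting. Without double mutant 1, 2 or 4, or without WT 1 or WT 3, Tfrc in Klf1-positive wells stayed at 0.71 to 0.82 and lost the threshold (edgeR adjusted p = 0.0991 to 0.502), and it was 0.84 ± 0.24 in session 1 and 0.70 ± 0.29 in session 3. With flow cell in place of session it was 0.41 ± 0.34 (edgeR adjusted p = 0.927). WT and double mutant plates never shared a flow cell. All 8 macrophage markers tested were lower in the Klf1-positive wells of the double mutant than of WT (median -2.06), and the globin markers that could be tested, 2 of 9, were both higher. Of the 15 erythroid markers, however, 0 were higher and 1, Car1, was lower. Their sums were 3580 to 4000 CPM in the double mutant, inside the WT range of 2780 to 6260 CPM. Of 10 cycling markers 1, Ccnb1, was higher and 0 were lower, with sums of 3440 to 3670 CPM in the double mutant against 2260 to 2820 CPM in WT. The part of any of these markers or their cells in the Tfrc difference was not tested.

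Uros in Klf1-positive wells stood at 47.5, 64.3 and 22 CPM in WT and 70.4, 102 and 109 CPM in the double mutant, without overlap, with a log2 fold change of 1.11 ± 0.28 that missed the threshold (edgeR adjusted p = 0.0739). Alas2 stood at 6.72, 35.1 and 11.0 CPM in WT against 42.1, 16.9 and 22 CPM (1.41 ± 0.54, edgeR adjusted p = 0.301), and these ranges overlapped. Urod, Alad, Slc25a37, Ppox and Fech lay between 0.32 and 0.50 with adjusted p of 0.389 to 0.693.

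**Figure D5:**
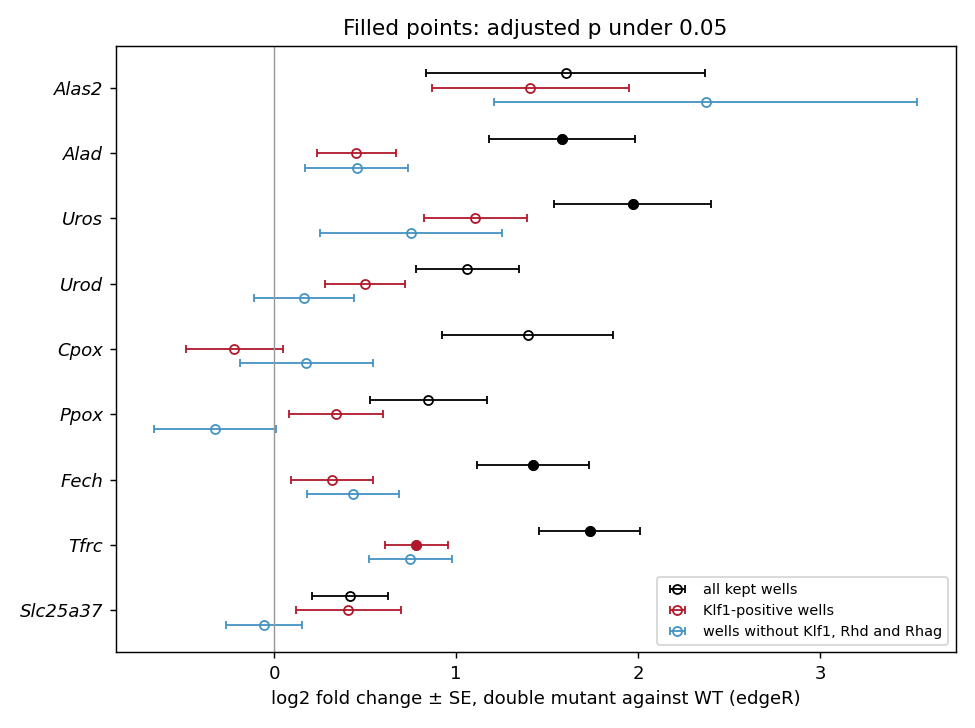
Log2 fold changes (x axis, ± SE) of double mutant against WT from edgeR, in all kept wells (black), in Klf1-positive wells (red) and in wells without Klf1, Rhd and Rhag (blue). Filled points have an adjusted p under 0.05; Tfrc is filled in all wells and in Klf1-positive wells, and Cpox is 1.39 in all wells but -0.22 and 0.18 within the classes.

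Neither single mutant had a called member against WT. In Rev1 KO, 0 of 9 passed and 0% of all 12221 genes, with 5 of 9 differences above 0 and a median of 0.09. The largest was that of Alas2, which stood at 0.00, 0.631 and 1.85 CPM in Rev1 KO 1 to 3 (0, 3 and 10 UMIs), below all 3 WT plates. Its log2 fold change of -3.38 ± 0.88 had an unadjusted p of 0.00241 and an edgeR adjusted p of 0.386, and was the only member at an unadjusted p under 0.05. DESeq2 called it, at -3.60 ± 0.92 (adjusted p = 0.0254). Without WT 3, whose Alas2 lay mostly in 1 well, it was -2.18 ± 0.87. In Klf1-positive wells the Alas2 difference was -0.84 ± 0.87, with the 2 Rev1 KO plates of session 3 at 3.96 and 7.04 CPM.

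In Pcna K164R 0 of 9 passed, beside 0% of all genes, with 0 at an unadjusted p under 0.05 and 0 by DESeq2, 8 of 9 differences above 0 and a median of 0.30. Alas2 stood at 8.56 and 8.47 CPM, inside the WT range. In each plate 1 Klf1-positive well held most of its UMIs, 41 of 79 in Pcna K164R 1 and 29 of 44 in Pcna K164R 2. In Klf1-positive wells 0 of 9 passed in either single mutant, by edgeR and by DESeq2, beside 0% of the 9558 genes tested, with 3 members at an unadjusted p under 0.05 in Pcna K164R (Alas2, Tfrc and Uros) and 0 in Rev1 KO. In the wells without Klf1 it was again 0 of 9 by both tools, beside 0.00854% of genes in Pcna K164R and 0% in Rev1 KO, with 0 at an unadjusted p under 0.05 in Pcna K164R and 1, Fech, in Rev1 KO. These single-mutant comparisons share the WT plates with that of the double mutant.

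Set against Rev1 KO, the double mutant had 3 of 9 members higher, beside 1.75% of genes called, 0.663% as higher. They were Alas2 (4.98 ± 1.00, edgeR adjusted p = 0.0354), Tfrc (1.51 ± 0.30, 0.0347) and Fech (1.67 ± 0.36, 0.0430). The Alas2 plates did not overlap, 0.00 to 1.85 CPM against 9.78 to 26.0 CPM. Without double mutant 2, double mutant 4, Pcna K164R 1 or 2, or Rev1 KO 2 or 3, the count fell to 0, and without WT 3 to 1. Against Pcna K164R 0 of 9 passed (0.0409% of genes, 0 members by DESeq2, 5 at an unadjusted p under 0.05), with all 9 differences above 0. The interaction of both mutations, which asks whether the double mutant departs from the sum of the single ones on the log scale, passed for 0 of 9 members and 0% of genes, and for 0 members by DESeq2. At an unadjusted p under 0.05 it had 2, Alas2 (3.98 ± 1.12) and Fech (1.38 ± 0.47).

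Of 44 other genes of haem and iron handling, 41 were tested over all kept wells, and 7 were higher and 0 lower in the double mutant than in WT, with a median log2 fold change of 0.61, beside 4.21% of all genes called, 1.8% as higher, and an all-gene median of -0.04. Among those with the lowest adjusted p were Tmem14c, which moves protoporphyrinogen within the mitochondrion (1.51 ± 0.26, edgeR adjusted p = 0.0126), Glrx5, an iron-sulfur cluster protein (1.24 ± 0.25, 0.0219), and Blvra, a biliverdin reductase of haem breakdown (0.93 ± 0.19, 0.0224). Within Klf1-positive wells and within the wells without Klf1, 0 of 41 were called, beside 1.19% and 0.393% of all genes. None was called in Rev1 KO or Pcna K164R against WT, beside 0% of all genes over all kept wells.

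Between the classes, 30 of these 41 genes were higher in Klf1-positive wells, 5 were lower and 6 missed the threshold, beside 63.8% of all genes called and 32.3% higher, and the median was 0.88 against -0.00 over all genes. Tmem14c (2.03 ± 0.08) and Glrx5 (1.86 ± 0.07) rose with the members. Alas1 and Slc25a28 are named here after their values were seen, as the widely expressed counterparts of Alas2 and Slc25a37. Alas1 was lower with Klf1, by -1.36 ± 0.17 (edgeR adjusted p = 1.10e-07), at 17.7 to 34.1 unscaled CPM against 36.6 to 172. For Slc25a28, which encodes mitoferrin 2, the difference was -0.17 ± 0.10 (edgeR adjusted p = 0.152).

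Across the 12 plates, the genes whose log2 CPM followed the mean of the 9 members most closely included Gclm (Pearson r = 0.978) and Slc39a8 (0.969). Those closest to Tfrc were Glrx5 (0.982), Nipa1 (0.979) and Endod1 (0.977), and those closest to Alas2 were Trim10 (0.89), Acsl1 (0.883) and Pmaip1 (0.865). Without double mutant 3 these 8 values lay between 0.872 and 0.986. The 12 points share genotype, session and depth, so these are descriptions, and they say nothing of shared control.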

How the data were processed

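The authors deposited, per plate, read counts, UMI counts and estimated counts of transcripts, the last being UMI counts corrected for collisions among 4096 random barcodes, as the labels' protocols describe. Reads were aligned with BWA 0.7.15 to GRCm38 (mm10), per the submitters' processing notes; how strand and doublets were handled is not given in the sources used here. UMI counts of wells with at least 1000 UMIs outside ERCC spike-ins were summed per plate, over all wells and by class of well. No doublet caller was run. Genes were filtered with filterByExpr, scaled by TMM and tested with edgeR 4.0.16 (R 4.3.3, limma 3.58.1) with genotype and sort session as terms, or with plate as a block between classes, and p-values were adjusted over all genes tested by Benjamini-Hochberg. DESeq2 1.42.0 served as an alternative, and estimated counts were rounded for it and for edgeR. The scripts were tested on simulated data. No 2 plates of the same genotype agreed within counting noise (chi-square per degree of freedom at least 8.11). Plates of different genotypes were not compared in this way.

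Genes named are the 9 members, the genes that check the labels or define the classes, up to 4 other haem and iron genes by adjusted p in double mutant against WT, and the 3 most correlated genes per pattern; exceptions are stated where they occur, and 1 gene that the rule names is not reported here. Members and lists were chosen with earlier results of these data known.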

Additional observations from a re-analysis of the deposited data

Results flagged for a closer look

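Uros in the wells without Klf1, Rhd and Rhag stood at 110.0 CPM in double mutant 3, far from the other 3 double mutant plates, of which the nearest stood at 17.3 CPM. The gap made up 0.973 of the range of the group. The value rests on 10 Uros UMIs in the plate with the fewest UMIs, and the TMM factor of 0.58 in these wells raises it. It was the only one of 19 groups of 4 plates with a sample this far out, and chance sets about 1 in 20 such groups apart.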

How the results depend on the processing

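No paired analysis was possible because the labels give no replicate numbers that tie plates of different genotypes together. The comparison of the classes, which had plate as its block, called 8 of 8 members with no replicate block, and 8 to 9 when single plates were left out. The members stayed above 0 for double mutant against WT over all wells under each of the 24 alternatives in which they were tested (23 for Alas2, which failed the filter after thinning), but the number called changed from 4 to 6 with DESeq2, 2 with library totals, 8 with no filter, 0 with read counts, 2 with no session term, 0 with flow cell, 0 in session 1, 7 in session 3 and 0 without double mutant 3 and 4 (chosen after seeing the data), and to between 0 and 6 without single plates. For double mutant against Rev1 KO, 3 changed to 5 with DESeq2, 1 with library totals, 6 with no filter, 0 with read counts, 0 with flow cell, 7 in session 3, 0 without double mutant 3 and 4, and 0 to 5 without single plates. With no filter, double mutant against Pcna K164R had 4, the interaction 2 and Rev1 KO against WT 1, as the last also had with DESeq2. In Klf1-positive wells double mutant against WT changed from 1 to 3 with no filter, and to 0 with read counts, no session term, flow cell, session 1, session 3, thinning or without double mutant 3 and 4, and ranged from 0 to 2 without single plates. In the wells without Klf1 thinning gave 1. Session 3 holds 1 double mutant plate, assumed to vary like the other groups. The Klf1-positive share of Rev1 KO against WT turned from -0.293 to 0.813 points without WT replicate 1 and 0.271 without Rev1 KO replicate 1, within a range of -0.863 to 0.813 without single plates. Of 366 single called values under alternatives, 279 stayed past the threshold, 87 did not, and 0 changed sign. This total includes the comparison of the classes, where each of the 8 called members held under all 22 alternatives. The genotype calls held less often. Over all wells against WT, Alad held in 9, Fech in 13, Uros in 15 and Tfrc in 18 of 24. Against Rev1 KO, Alas2 held in 13 of 22, Fech in 9 of 23 and Tfrc in 12 of 23. Tfrc in Klf1-positive wells against WT held in 14 of 26. The cause was not tested. Depth limits Alas2 most, and every member in double mutant 3, with 1 to 21 UMIs each.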
